A study of Homo sapiens with 2 samples.

Results

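The AP-1 family was followed in the expression profiles as the 8 genes FOS, FOSB, FOSL1, FOSL2, JUN, JUNB, JUND and ATF3, which were found by gene symbol among 19198 genes in the deposited values. All 8 had a row in both libraries, and all 8 reached the minimum of 10 reads in a library that was set for counts of genes. The members were chosen by gene name with the A549-NICD1 and A549-Vector values of earlier work on these libraries in view, as were the gene lists, so their values are a description and carry no test.

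The samples were 1 library of A549-NICD1, that is, cells labelled as the lung adenocarcinoma line A549 with overexpression of NICD1, and 1 library of A549-Vector, the same line with a vector control. NICD1 is the intracellular domain of NOTCH1, which moves to the nucleus once the receptor is cleaved and activates transcription with RBPJ. The study cloned NICD1 into lentiviral vectors and made stable lines by infection and antibiotic selection, and the sources used here do not say whether a line was a clone or a pool. Poly(A) RNA was sequenced, and the comparison addressed which genes changed with NICD1. With 1 library per condition there is no replicate check, and NICD1 and any other difference between the cultures cannot be told apart. NOTCH1 was at 5.40 FPKM in A549-Vector and at 2865 FPKM in A549-NICD1, the direction that the labels give. RFC4, a subunit of the replication factor C complex that the study follows, was also far higher, at 39.5 FPKM in A549-Vector and at 4075 FPKM in A549-NICD1. The NOTCH1 value rests on the length taken for the gene, and NICD1 covers only a part of NOTCH1. The levels of RFC4 and NOTCH1 are therefore not ranked against each other. A549-NICD1 thus stood apart by more than its NOTCH1 level, and the part of RFC4 in the results below cannot be told apart from that of NICD1. The NOTCH target HES5 was at 7.78 and 115 FPKM. FPKM are reads divided by the length of the gene and the depth of the library, which was read from the values as 48602848 reads for A549-Vector and 48528434 for A549-NICD1. The listed markers did not settle the cell line label. Of 19 listed A549 markers, 11 were under 1 FPKM in both libraries, and KRT7, KRT19, FGA, FGB and SERPINA1 were listed at 0 in both. Of 9 genes listed for HEK293, an embryonic kidney line, 7 reached 1 FPKM in each library. Among all 19198 genes, 12263 had a mean of at least 1 FPKM, so reaching that level is common and does not mark a line. Both lists were chosen with earlier results of these data known, so nothing is read from these counts. The summed level of the A549 markers came to 183 FPKM in A549-Vector and to 330 FPKM in A549-NICD1, most of it from KRT8 and KRT18. That of the HEK293 markers was 242 and 232 FPKM, most of it from CDKN2A at 139 and 138 FPKM. Each sum thus rests on few genes, and the sums do not weigh the lines against each other. The part of the cell line in the results below was not tested.

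AP-1 is a dimer of basic leucine zipper proteins that binds short palindromic sites in promoters and enhancers. JUN proteins pair with each other or with FOS proteins, whereas FOS proteins need a JUN partner to bind DNA. FOS, FOSB, JUN, JUNB and ATF3 are immediate early genes, which growth factors and stress switch on within minutes without new protein synthesis, and JUND is the member that most cells express steadily. ATF3 belongs to the related ATF family, pairs with JUN proteins and is induced by many kinds of cell stress.

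The promoter windows of the members are shown first, because sites near the start of these genes are among those known to bind AP-1 and ATF proteins themselves. RefSeq windows of GRCh38.p14, from 250 bases before to 50 bases after the start of the transcript, were matched for 7 of the 8 members, all but FOSL1, and ATF3 had 2 windows. Of these, 1 lies at the start of the ATF3 gene and the other well inside it, at chr1:212614768-212615067. The gene has 11 annotated transcripts, and windows at any other start were not searched. What is said of ATF3 below therefore holds for these 2 windows and not for the promoter in use, which is not known. Those of JUN, the member with the highest level, of ATF3, the one with the largest difference, of FOS, and of JUND, the one member that was lower in A549-NICD1, are given 5′ to 3′ on the strand of the gene, with each motif found in capitals.
JUN, chr1:58783998-58784297, minus strand: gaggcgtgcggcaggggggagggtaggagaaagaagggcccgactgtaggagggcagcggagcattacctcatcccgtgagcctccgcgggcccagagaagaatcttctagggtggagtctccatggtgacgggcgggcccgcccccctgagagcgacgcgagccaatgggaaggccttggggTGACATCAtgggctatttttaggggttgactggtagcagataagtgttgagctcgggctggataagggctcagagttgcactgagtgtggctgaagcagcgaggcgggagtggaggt
ATF3, chr1:212565157-212565456, plus strand: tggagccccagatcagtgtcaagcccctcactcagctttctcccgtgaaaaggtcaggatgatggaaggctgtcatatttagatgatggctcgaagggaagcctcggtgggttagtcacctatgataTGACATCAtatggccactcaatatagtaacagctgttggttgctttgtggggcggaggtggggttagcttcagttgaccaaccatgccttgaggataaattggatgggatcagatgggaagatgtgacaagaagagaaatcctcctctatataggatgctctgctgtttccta
FOS, chr14:75278578-75278877, plus strand: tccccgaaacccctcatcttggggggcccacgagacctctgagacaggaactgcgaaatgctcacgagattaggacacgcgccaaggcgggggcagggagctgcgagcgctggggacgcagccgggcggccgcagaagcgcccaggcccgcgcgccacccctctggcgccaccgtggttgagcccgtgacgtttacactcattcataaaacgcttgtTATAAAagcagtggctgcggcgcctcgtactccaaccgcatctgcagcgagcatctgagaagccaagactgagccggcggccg
JUND, chr19:18281573-18281872, minus strand: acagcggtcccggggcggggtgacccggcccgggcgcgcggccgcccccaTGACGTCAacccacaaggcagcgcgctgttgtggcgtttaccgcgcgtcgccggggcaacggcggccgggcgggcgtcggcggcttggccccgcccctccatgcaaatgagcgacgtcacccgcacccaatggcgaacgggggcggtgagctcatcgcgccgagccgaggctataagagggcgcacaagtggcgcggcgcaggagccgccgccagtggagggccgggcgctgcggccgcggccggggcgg

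The motifs searched on both strands were TGACTCA, the AP-1 consensus, TGACGTCA, the cyclic AMP response element that ATF and CREB proteins bind, its variant TGACATCA, the serum response element as it stands far upstream of FOS, the RBPJ core GTGGGAA, and the TBP site TATAAA. None of the matches overlapped another. The JUN and ATF3 windows both held TGACATCA, beginning at position -67 from the start in JUN and -123 in ATF3, which makes 2 of 7 members against 2.61% of 35116 windows of all genes. JUND held TGACGTCA at position -200, a motif in 1.85% of windows. FOSL2, which is not shown, held TGACTCA from base 5 of the transcript, a motif in 4.95% of windows. TATAAA began at position -33 in FOS, -30 in FOSB and -31 in JUNB, and was also found in the other ATF3 window, at position -230, against 11.5% of all windows. GTGGGAA, in 6.25% of windows, and the serum response element, in 0.0342%, were found in no member's window, which says only that these letters are not in these 300 bases. A match is not evidence that a factor binds there, and no binding was measured. The windows also differed in base composition. JUND was the richest in G and C at 77.0%, above 93.6% of all windows, and the 2 ATF3 windows the poorest at 48.0% and 46.3%, against a median of 58.7% over all windows.

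JUN and JUND encode the partners on which AP-1 binding rests, and they were the most abundant members in A549-Vector. JUN was at 50.2 FPKM in A549-Vector and at 93.5 FPKM in A549-NICD1, from 8107 and 15079 reads. This made it the highest member in both libraries, and its rank among all genes went from 1515 to 649. The gene is a single exon on chromosome 1 (chr1:58780788-58784327, minus strand, GRCh38). JUND was at 33.8 FPKM in A549-Vector and at 30.8 FPKM in A549-NICD1, from 3226 and 2936 reads, and was the only member that was not higher in A549-NICD1. The ratio of JUN to JUND therefore went from 1.48 to 3.03. JUNB, which can oppose JUN at some promoters, was at 7.77 FPKM in A549-Vector and at 9.41 FPKM in A549-NICD1. Like JUN and JUND it has 1 exon, and 259 bases of it also lie in exons of HOOK2 on the opposite strand, which was at 10.4 FPKM and 9.26 FPKM. The study names its sequencing as strand-specific, but the strand setting of the counting is not given in the sources used here, so it is not known whether reads of JUNB and HOOK2 in that stretch were kept apart.

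ATF3 showed the largest difference of the family. Its level stood at 11.7 FPKM in A549-Vector and at 45.4 FPKM in A549-NICD1, from 1180 and 4583 reads, and its rank among all genes went from 6551 to 1713. In A549-Vector it stood below JUND at 0.346 times its level, and in A549-NICD1 above it at 1.47 times. The gene spans chr1:212565334-212620777 on the plus strand with 11 annotated transcripts, and the values are totals per gene that do not show which promoter was used.

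The FOS genes, whose products supply the partner of JUN in the classical dimer, were low in both libraries. FOSL2, a steadier member of the class, was the highest of them at 4.28 FPKM in A549-Vector and at 4.80 FPKM in A549-NICD1. FOS was at 1.04 FPKM in A549-Vector and at 2.27 FPKM in A549-NICD1, from 109 and 238 reads. FOSL1, which encodes FRA1 and is known as a target of ERK signalling, was at 1.35 FPKM in A549-Vector and at 1.88 FPKM in A549-NICD1, from 107 and 149 reads. FOSB was the lowest member in both, at 0.896 and 1.17 FPKM. All of these genes were thus higher in A549-NICD1, by amounts that differed between them. The counting intervals of the levels (95%, exact Poisson) show which of these low genes can be ordered. In A549-Vector, FOS lay between 0.853 and 1.25 FPKM, FOSL1 between 1.11 and 1.63 and FOSB between 0.763 and 1.04, so that FOS overlapped both of the others. The interval of FOSB rests on 162 reads, which are known only up to a factor. With the smallest number that fits, 81, it would be wider, so the place of FOSB below FOSL1 in A549-Vector is not secure. In A549-NICD1, FOS lay between 1.99 and 2.58 FPKM and FOSL1 between 1.59 and 2.21, so that FOS was above FOSL1 by its value but not beyond counting error, and both were above FOSB with its upper limit of 1.34. The other members kept clear of each other in both libraries. These intervals, like those below, hold counting error alone. Reads were not tied to single molecules by identifiers, and the spread between cultures is not in them. No 100-base window of the members' transcripts, taken every 50 bases, occurred unchanged in an annotated transcript of another gene. Copies with mismatches were not searched for.

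**Figure D1:**
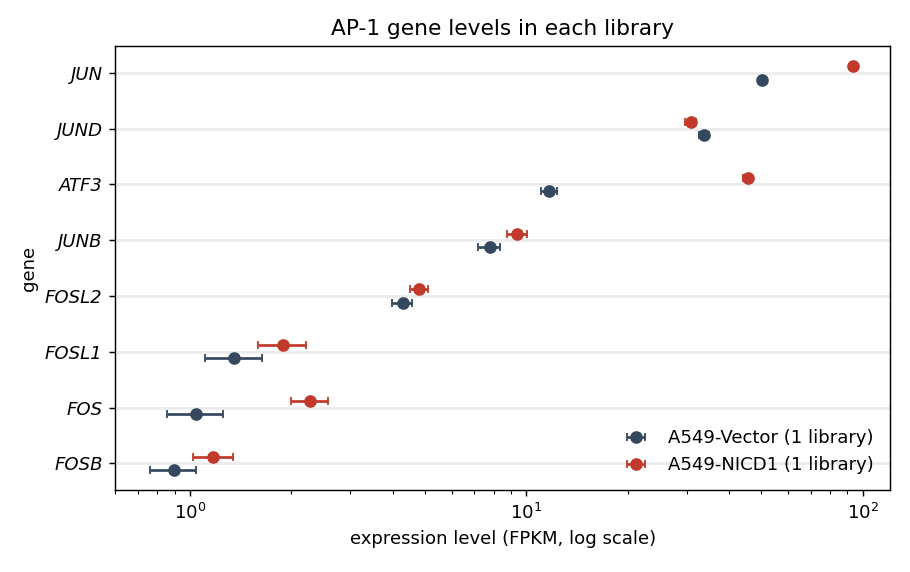
Levels of the 8 AP-1 genes in A549-Vector (dark) and A549-NICD1 (red), 1 library each, in FPKM on a log axis, with 95% counting intervals. JUN is the highest in both libraries, ATF3 moves past JUND, from 11.7 to 45.4 FPKM, and JUND is the only gene whose red point lies to the left.

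To compare the libraries, the log2 fold change of A549-NICD1 over A549-Vector was taken on reads plus 0.5 after scaling of the depths, which lifts it by 0.05 over the ratio of the FPKM. For ATF3 it was 2.01, with a 95% Clopper-Pearson interval of 1.92 to 2.11, or 4.04-fold. FOS followed with 1.18 (0.85 to 1.52), or 2.26-fold, and JUN with 0.95 (0.91 to 0.99), or 1.93-fold. These are the genes of the family that stood farthest from no change. FOSL1 had 0.53 (0.17 to 0.91) and FOSB 0.44 (0.14 to 0.75). The reads of FOSB can be known only up to a factor, and with the smallest number that fits, 106 and 81, its interval was 0.01 to 0.88. JUNB had 0.33 (0.18 to 0.48), FOSL2 0.22 (0.08 to 0.35) and JUND -0.08 (-0.15 to -0.01). The range within the family was therefore wide, and the members' own class did not set it, since JUN and JUND stood at opposite ends of the JUN genes and FOS and FOSL2 at opposite ends of the FOS genes.

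A log2 fold change of at least 1 in favour of A549-NICD1 was found for 2 of the 8 members, FOS and ATF3, against 4.34% of the 15294 genes that had 10 or more reads in a library. With a pseudocount of 1 FPKM, FOS had 0.72 and ATF3 was the 1 member left, against 0.294% of genes. At least 0.5 was reached by 4 of 8, with JUN and FOSL1 added, against 8.62% of genes. No member was lower by as much as 0.5, against 7.84% of genes, and 7 of 8 were above 0, against 49.5%. All members had at least 100 reads summed over both libraries, and among the 13312 genes with as many, 1.21% reached 1 and 3.94% reached 0.5. Since these members were proposed with the contrast known, the counts are set beside the background and nothing is read from them. The counting interval lay wholly above 0 for 7 members and wholly below it for 1, but at this depth it also lay above 0 for 28.5% and below 0 for 29.3% of all genes, so that an interval clear of 0 is common here and is no sign of a difference between conditions. The median log2 fold change of the members was 0.49, against 0.00 over these 15294 genes. Among the 13312 genes with at least 100 reads, ATF3 had rank 35 by log2 fold change, FOS rank 101 and JUN rank 169, while FOSL2 had rank 1847 and JUND rank 8536.

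**Figure D2:**
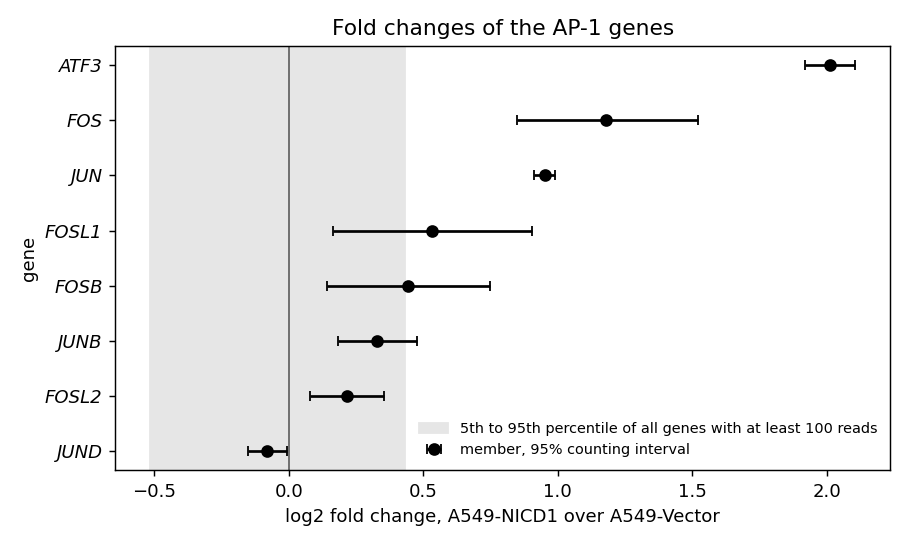
Log2 fold changes of the 8 AP-1 genes with 95% counting intervals, over the range from the 5th to the 95th percentile of all genes with at least 100 reads (-0.51 to 0.43). ATF3, FOS and JUN lie beyond that range with their whole intervals.

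Seen as the make-up of the family, the summed level of the 8 genes came to 111 FPKM in A549-Vector and to 189 FPKM in A549-NICD1, a ratio of 1.70. ATF3 made up 10.5% of the sum in A549-Vector and 24.0% in A549-NICD1. JUN made up 45.2% and 49.4%, whereas JUND went from 30.5% to 16.3% of the sum with a level that was nearly the same. The FOS genes together made up 6.82% in A549-Vector and 5.35% in A549-NICD1, although each of them was higher, because their own sum grew less than that of the family. The JUN genes were 12.1 times the FOS genes by summed level in A549-Vector and 13.2 times in A549-NICD1. In both libraries the JUN transcripts thus far outnumbered those of the FOS partners. These are transcript levels, and no protein or dimer was measured.

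**Figure D3:**
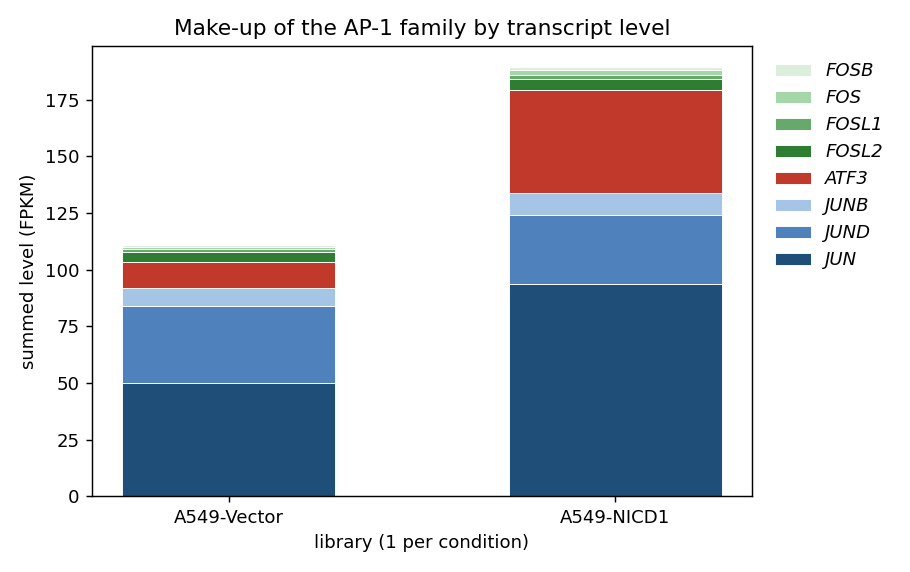
Summed level of the 8 AP-1 genes in FPKM in each library, stacked by gene. The column grows from 111 to 189 FPKM, and the ATF3 and JUN parts account for most of the added height.

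The genes whose levels over the 2 libraries lay closest to those of the leading members were named by their distance in log2 FPKM, among genes with at least 100 reads. For ATF3 they were DUSP1, a phosphatase of MAP kinases, at 13.8 and 38.9 FPKM (distance 0.33), HERPUD1, a factor of endoplasmic reticulum protein degradation, at 16.1 and 42.9 FPKM (0.47), and GUCY1B3, a subunit of soluble guanylate cyclase, at 14.1 and 29.9 FPKM (0.66). For JUN they were the desmosomal gene DSP at 53.1 and 101 FPKM (0.14), XBP1, a bZIP factor of the unfolded protein response, at 55.5 and 81.3 FPKM (0.25), and the proteasome assembly gene POMP at 61.2 and 82.3 FPKM (0.34). In each pair the value in A549-Vector comes first. Likeness over 2 libraries is a description only.

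Other bZIP proteins can pair with or compete with AP-1. Of 19 listed, 18 had 10 or more reads in a library, of which 10 were higher and 8 lower in A549-NICD1, against 49.5% of all genes above 0. The median log2 fold change was 0.05 and went to -0.0048 with no scaling of the depths. A value of at least 1 was found for 2 of the 18, against 4.34% of all genes. MAFF, a small MAF protein that lacks an activation domain, was at 0.814 FPKM in A549-Vector and at 2.24 FPKM in A549-NICD1 (log2 fold change 1.51, interval 1.17 to 1.87). DDIT3, the stress factor CHOP, was at 4.36 and 8.75 FPKM (1.06, 0.82 to 1.30). The common JUN partners ATF2 and ATF7 had log2 fold changes of -0.08 and -0.03, JDP2, a repressor at AP-1 sites, had 0.15 and BATF3, which pairs with JUN proteins, had -0.34. ATF4, which acts upstream of both ATF3 and DDIT3 in the stress response, was at 241 FPKM in A549-Vector and at 250 FPKM in A549-NICD1 (log2 fold change 0.11).

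Genes known to act on the members differed less than the leading members did, which were singled out by their values. Among 20 kinases and transcription factors known to lie upstream, such as the ERK, JNK and p38 kinases, none had a log2 fold change beyond 0.5 in either direction. Of all genes, 8.62% were higher and 7.84% lower by as much. Of the 20, 7 were higher and 13 lower, against 49.5% of all genes above 0, and the median was -0.07. The counting intervals lay wholly above 0 for 6 and wholly below 0 for 10, against 28.5% and 29.3% of all genes. MAPK8, the kinase JNK that phosphorylates JUN, was at 10.2 FPKM in A549-Vector and at 8.76 FPKM in A549-NICD1. SRF, which drives FOS through the serum response element, was at 25.7 and 29.7 FPKM, and its cofactor ELK1 at 25.1 and 26.4 FPKM. These are transcript levels, whereas the kinases act by phosphorylation, which was not measured. Of 9 genes of AP-1 mRNA and protein turnover, 8 were higher and 1 lower, against 49.5% of all genes above 0, with a median of 0.21. None was beyond 0.5, against 8.62% of all genes higher and 7.84% lower by as much. The counting intervals lay wholly above 0 for 7 and wholly below 0 for 0, against 28.5% and 29.3% of all genes. The highest was TRIB1, a pseudokinase that acts with ubiquitin ligases, at 0.49 (0.41 to 0.57), which is as large as the value of FOSB. ZFP36, which speeds the decay of FOS mRNA and is itself an immediate early gene, was at 2.24 FPKM in A549-Vector and at 2.999 FPKM in A549-NICD1. FBXW7, a ubiquitin ligase subunit that recognizes both JUN and NICD1, was at 16.9 and 16.2 FPKM.

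Genes known as AP-1 targets lay on both sides of 0. Of 20 listed, 14 had 10 or more reads in a library, of which 9 were higher and 5 lower in A549-NICD1, against 49.5% of all genes above 0. The median log2 fold change was 0.13. The counting intervals lay above 0 for 9 and below 0 for 3, against 28.5% and 29.3% of all genes. With no filter on low values the median was 0.36, since the genes then added had reads in A549-NICD1 but none in A549-Vector. Among these, the matrix metalloproteinase genes MMP3 and MMP10 had 9 and 6 reads in A549-NICD1. Against a floor of 3 reads in the A549-Vector library this came to 3.12-fold and 2.08-fold, which leaves out the counting error of the A549-NICD1 reads. The lower limits of the counting intervals of their log2 fold changes were 1.04 and 0.29. HBEGF, a ligand of the EGF receptor, was at 3.91 FPKM in A549-Vector and at 8.19 FPKM in A549-NICD1 (log2 fold change 1.12, interval 0.96 to 1.29). The other values of at least 1 rested on very few reads, and these genes are named because of their values. CXCL8 had 3 reads in A549-Vector and 23 in A549-NICD1 (interval of the log2 fold change 1.27 to 5.37), and MMP13 had 3 and 20 (1.04 to 5.19). Among the targets with more reads, TGFB1 had 0.31, VEGFA 0.42 and CD44 0.49. These were picked from the higher side of the list after their values were seen. Of the 14 targets, 3 had a log2 fold change of at least 0.5 and 3 were lower by at least 0.5, against 8.62% and 7.84% of all genes. MMP1 and IL6 were listed at 0 in both libraries, CCND1 was at 27.0 and 27.1 FPKM and the urokinase receptor gene PLAUR at 5.84 and 5.03 FPKM. Of the 3 that were lower by at least 0.5, HMOX1 had the most reads, at 63.5 FPKM in A549-Vector and at 40.8 FPKM in A549-NICD1 (log2 fold change -0.58).

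The immediate early genes outside the family were higher with few exceptions. Of 18 of 19 listed that had 10 or more reads in a library, 17 were higher and 1, BTG2, lower, and the median log2 fold change was 0.86. The values of at least 1 numbered 8, against 4.34% of all genes at 1 or more and 49.5% above 0. The list was chosen with results of these libraries known, so nothing is read from these counts. With a pseudocount of 1 FPKM the median was 0.55. EGR1 was at 0.919 FPKM in A549-Vector and at 3.36 FPKM in A549-NICD1 (log2 fold change 1.92), EGR3 had 2.001, EGR2 1.76, DUSP1 1.54, KLF4 1.26 and CYR61 1.25. IER2, which is usually induced along with FOS, had 0.44. FOS and JUN lay within the range of these 18 genes. ATF3, at 2.01, stood level with the highest of them, EGR3, whose counting interval of 1.52 to 2.53 holds that value.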

How the data were processed

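Poly(A) RNA of A549-NICD1 and A549-Vector cells was sequenced, 1 library each, and grouped by the genotype in the labels. The authors deposited 1 value per gene and library, taken here as FPKM. The unit, gene annotation and gene lengths are not given in the sources used here, and the submitters' processing notes name Bowtie2, HTSeq and hg38 without versions. The unit was read from the values alone. Genes with equal reads gave the ratio of the depths, and lengths came out whole for 61.3% of 4002 genes with a mean distance of 1.62e-06 bases at depths of 48528434 (A549-NICD1) and 48602848 reads (A549-Vector). Whole reads were then found for 17176 of 17178 genes above 0, and where several lengths gave whole reads, the one nearest to a GENCODE 29 transcript was used, at most 10% over the longest. The reads add up to 106% of each depth, so for some genes a multiple of the true reads was taken, which leaves ratios as they are. It makes the counting intervals of such genes too narrow and can lift a gene over a limit on reads. The shares of all genes with an interval clear of 0 may thus be too high. With the smallest whole reads that fit, 15101 genes reached 10 reads in a library.

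Log2 fold changes used reads plus 0.5, which understates low genes, and a trimmed-mean factor of 0.964 for A549-NICD1, in which the outer 30% of log ratios and the outer 5% by expression were cut on either side. Intervals are 95% Clopper-Pearson (folds) or exact Poisson (levels) and cover counting error only. With 1 library per condition no test was made. Members, gene lists and markers were chosen with earlier results of these data known. Of the other genes, those named had at least 30 reads summed and a log2 fold change of at least 1 in either direction, at most 6 per list. Named as well were a fixed set of partners, regulators, targets and immediate early genes, the checks NOTCH1, RFC4 and HES5, and the 3 genes nearest to ATF3 and to JUN. BTG2, CD44, CXCL8, HMOX1, IL6, MMP3, MMP10, MMP13, TGFB1, TRIB1 and VEGFA lie outside this rule and were picked after their values were seen. The cell line markers named were those at 0 in both libraries and those that made up most of a summed level. Rows whose gene name had turned into a date number (27) were not used, and 1 target gene is not reported here. The steps were tested on simulated reads of 17176 genes, in which both depths, 100% of read ratios and 96.1% of reads were recovered and 95.5% of 14919 intervals of unchanged genes held 0. The simulation took the lengths already chosen here and drew reads with counting error alone, so it checks the code. It cannot show that the chosen lengths are the true ones, nor that the intervals cover the spread between cultures. Python 3.11.15, numpy 2.4.6, pandas 2.3.3 and scipy 1.17.1 were used.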

Additional observations from a re-analysis of the deposited data

How the results depend on the processing

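No paired analysis was possible because there was only 1 library per condition, and no replicate could be left out. Across 9 alternatives each, all 8 members kept their direction, with log2 fold changes of 1.93 to 2.02 for ATF3, 0.90 to 0.95 for JUN and -0.13 to -0.08 for JUND. Values with no further scaling gave 0.90 for JUN, outside its counting interval, and shifted the median of all genes by -0.05, and they turned the median of the other bZIP genes from 0.05 to -0.0048, so that list has no direction. A pseudocount of 1 FPKM gave 0.72 for FOS, left 1 member at 1 or more instead of 2, and gave medians of 0.31 for the members and 0.55 for the other immediate early genes. A filter at a mean of 1 FPKM gave 0.68 for the latter, and no filter gave 0.36 for the target genes. With whole reads in place of FPKM, which favours long genes, the shares in A549-NICD1 were 0.954% for FOS, 0.850% for FOSB, 0.597% for FOSL1, 3.72% for FOSL2, 60.4% for JUN, 3.32% for JUNB, 11.8% for JUND and 18.4% for ATF3, and in A549-Vector 0.757%, 1.12%, 0.743%, 5.77%, 56.3%, 4.76%, 22.4% and 8.19% in the same order. The share of all genes at 1 or more, 4.34%, was 8.81% with no filter, 2.05% with a pseudocount of 0.1 FPKM, 0.294% with 1 FPKM and 0.718% among genes averaging 1 FPKM or more, and the share at 0.5 or more, 8.62%, was 13.5%, 6.87%, 1.75% and 2.77%. Depth limits FOS, FOSL1 and FOSB most, with 107 to 238 reads.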
